A study of Mus musculus with 8 samples.

Results

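The 33 genes described here encode the enzymes of glycolysis, with their isoforms, and of the neighbouring lactate, glycerol phosphate, glycogen and pentose phosphate steps. They were taken by symbol from a named list, and all 33 were found among the 17983 gene symbols of the deposited tables. All 33 passed the filter on low counts, so that none was lost before testing. Messenger RNA was measured in whole brains of male db/db mice, a strain with a leptin receptor mutation that develops obesity and type 2 diabetes. A set of 4 libraries came from db/db mice on a ketogenic diet (KD), in which fat replaces nearly all carbohydrate, and 4 came from db/db mice given normal food, here called control. Feeding began when the mice were 9 weeks old, brains were taken when they were 6 months old, and mice without the db/db genotype were not part of the comparison. The labels do not say whether each library came from its own animal, so the p-values measure the spread between these libraries.

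Glycolysis splits glucose into pyruvate, the first stage by which brain cells draw energy from glucose. Hexokinase and phosphofructokinase are its early control points. Lactate dehydrogenase interconverts pyruvate and lactate, glycogen in the adult brain is held chiefly in astrocytes, and the pentose phosphate pathway branches off at glucose-6-phosphate to supply NADPH and ribose. Several steps have more than 1 gene, and the isoforms differ in kinetics and in the cells that use them. Ketone bodies are an alternative fuel of the brain when glucose is scarce, and the series description gives diet as the comparison.

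Total counts per library ran from 38163795 to 40233361 in ketogenic libraries and from 34450860 to 38738800 in control libraries. Ketogenic replicate 3 stood apart, at 34.4 on the first principal component of log2 CPM (counts scaled to a common library size), against 2.9 to 11.2 for the other ketogenic replicates and -22.7 to -5.94 for the control replicates. Of the 33 genes, 16 had their highest ketogenic value in replicate 3, including 12 of the 17 genes from hexokinase to pyruvate kinase, and 13 had their highest control value in replicate 4, including 9 of those 17. Over all 14895 genes tested, these shares were 30.3% for ketogenic replicate 3 and 27.3% for control replicate 4. Control replicate 2 gave the lowest control value for 14 of the 33, and for 21% of all tested genes.

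Promoters are printed for some of the genes in the diet results. These were Pfkl, the 6-phosphofructokinase gene that rose, and Pfkp, the isoform whose balance with it differed most. Neither Pfkp nor this balance passed the threshold given below. The others were Ugp2, which makes the glucose donor for glycogen and fell, and Ppp1r3c, a glycogen regulator that fell. The promoter of Hif1a, a transcription factor gene that also fell, is not printed. Each sequence is the 250 bases before an annotated RefSeq start site (GRCm38.p6, minus strand), and capitals mark ACGTG on either strand, the core letters of the hypoxia response element, including its overlap with the E-box CACGTG.
Pfkl, chr10:78009808-78010057: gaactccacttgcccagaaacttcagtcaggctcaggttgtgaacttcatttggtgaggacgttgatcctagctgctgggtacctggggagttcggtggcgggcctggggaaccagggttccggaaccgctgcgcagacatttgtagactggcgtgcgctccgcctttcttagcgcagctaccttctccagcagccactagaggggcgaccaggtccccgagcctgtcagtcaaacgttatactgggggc
Pfkp, chr13:6648772-6649021: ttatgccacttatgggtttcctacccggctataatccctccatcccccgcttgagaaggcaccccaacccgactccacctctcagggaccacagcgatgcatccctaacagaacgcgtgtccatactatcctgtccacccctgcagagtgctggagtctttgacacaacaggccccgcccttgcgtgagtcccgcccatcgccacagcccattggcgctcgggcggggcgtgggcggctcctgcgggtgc
Ugp2, chr11:21371268-21371517: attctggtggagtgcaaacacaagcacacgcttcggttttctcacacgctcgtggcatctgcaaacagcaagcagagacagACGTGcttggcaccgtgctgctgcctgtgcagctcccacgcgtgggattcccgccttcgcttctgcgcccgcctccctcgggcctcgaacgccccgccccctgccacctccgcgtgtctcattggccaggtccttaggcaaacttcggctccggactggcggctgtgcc
Ppp1r3c, chr19:36736605-36736854: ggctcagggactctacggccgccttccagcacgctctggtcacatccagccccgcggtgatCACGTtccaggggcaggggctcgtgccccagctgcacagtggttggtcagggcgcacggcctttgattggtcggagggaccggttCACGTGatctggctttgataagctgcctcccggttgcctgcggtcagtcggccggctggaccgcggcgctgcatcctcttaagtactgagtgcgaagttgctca

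The Pfkl and Pfkp windows held neither ACGTG nor CACGTG. The first of 2 Ugp2 start sites had 1 ACGTG match, 169 bases upstream, and the second had none. The Ppp1r3c window held an ACGTG match 189 bases upstream and a CACGTG 104 bases upstream, which contains ACGTG on both strands. Pfkm, the muscle type of 6-phosphofructokinase, has 4 annotated start sites, of which the first had a CACGTG 136 bases upstream. Start site 2 of Pfkm had 1 ACGTG match 244 bases upstream, and start sites 3 and 4 had none. Of the 32 genes with a promoter entry (Gpd1 had none), 14 (43.8%) held ACGTG in at least 1 window, against 18.5% of 27025 genes. CACGTG was found in 4 of the 32 (12.5%), Pfkm, Pfkfb2, Pfkfb3 and Ldha, against 6.86% of all genes. A gene counted if any of its windows matched, so genes with more start sites had more chances. Per window, ACGTG was in 16.6% of 32851. The 27025 genes also include genes not tested here, and neither limit was adjusted for. The median log2 difference between diets was 0.05 for the genes with ACGTG and 0.04 for those without it. A match describes the letters of the window and not a bound site.

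Transcript levels of the 33 genes spanned 3 orders of magnitude when scaled per length as FPKM, the counts divided by library size and gene length. Aldoa, the more abundant aldolase gene, averaged 697 FPKM over the 8 libraries and ranked 24 of 14895 genes. Hk2, the inducible hexokinase, averaged 0.594 FPKM, and Aldoa lay 1170-fold above it. The median over all tested genes was 5.97 FPKM, and 8 of the 33 lay within the top 1% and 12 within the top 5%. Gys1 (glycogen synthase), Tigar (a fructose-2,6-bisphosphatase), Pfkfb2 and Hk2 were the 4 in the lower 50% of genes. The 8 in the top 1% were all glycolytic or lactate enzymes: Aldoa, Ldhb, Tpi1, Aldoc, Eno1, Eno2, Pkm and Gpi1.

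**Figure D1:**
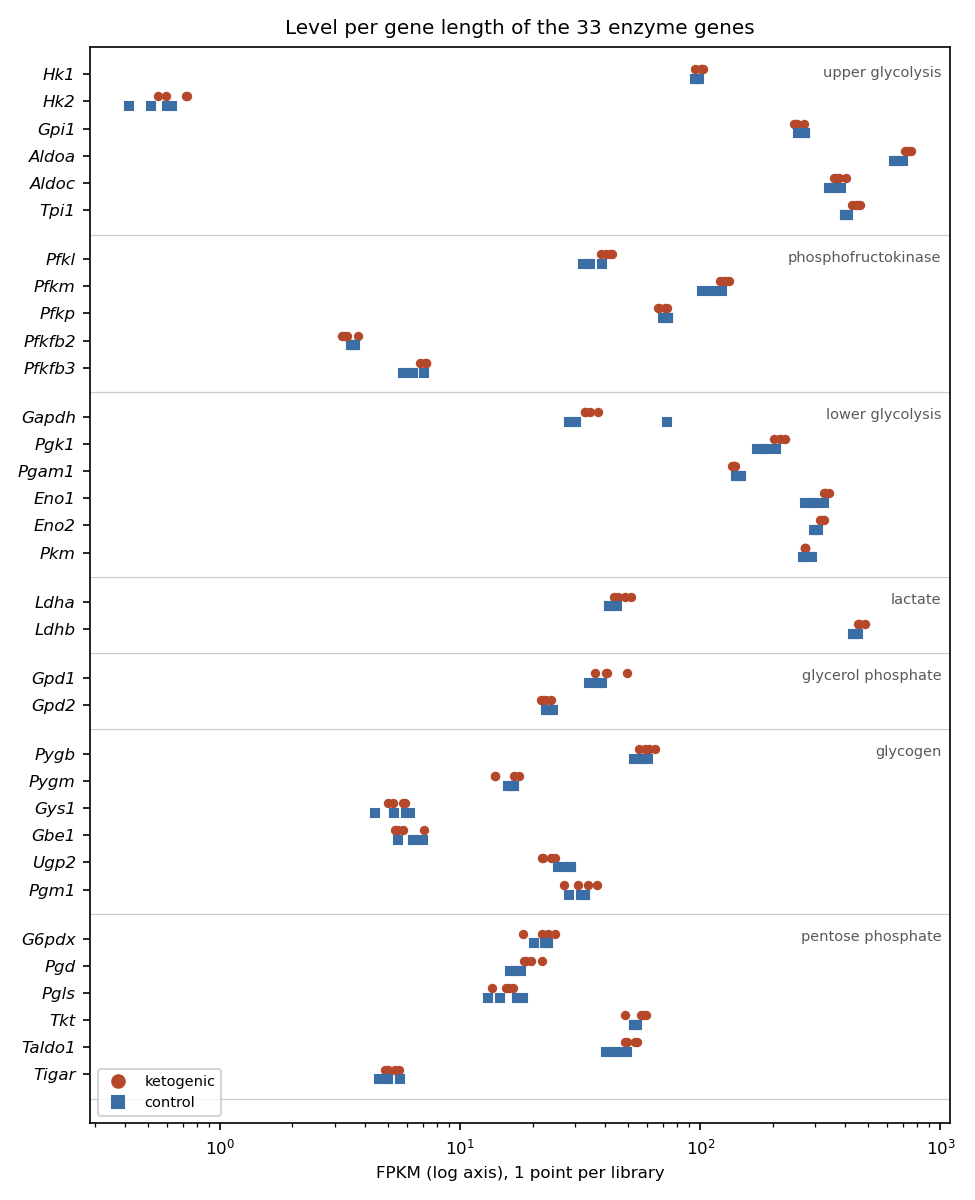
FPKM of each of the 33 genes in each library on a log axis, grouped by role, with ketogenic libraries as circles above control libraries as squares. The genes run from Hk2 near 0.594 FPKM to Aldoa near 697 FPKM, and within most genes the diets differ by far less than the genes do; the lone control square of Gapdh is replicate 4, at 72.5 FPKM.

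Against this range of levels, the diet differences were small. By the quasi-likelihood test of edgeR, with p-values adjusted after Benjamini and Hochberg over all 14895 genes and a threshold of 0.05, 1 of the 33 rose, Pfkl, and 1 fell, Ugp2. These 2 are 6.06% of the 33, against 6.52% of all tested genes (3.3% higher and 3.22% lower). In this fit the share of these enzymes past the threshold was near the background. The log2 fold changes of ketogenic over control ran from -0.26 to 0.26, with a median of 0.05, against a median of -0.00 over all tested genes. They were above 0 in 21 and below 0 in 12 of the 33, and above 0 in 49.3% of all tested genes. The ketogenic and control values did not overlap in 5 of the 33 (15.2%), against 13.7% of all tested genes. These were Aldoa, Tpi1, Eno2 and Pgd, with ketogenic values above control, and Ugp2, with ketogenic values below. Unadjusted p was under 0.05 in 10 of the 33 (30.3%), against 24.6% of all tested genes.

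**Figure D2:**
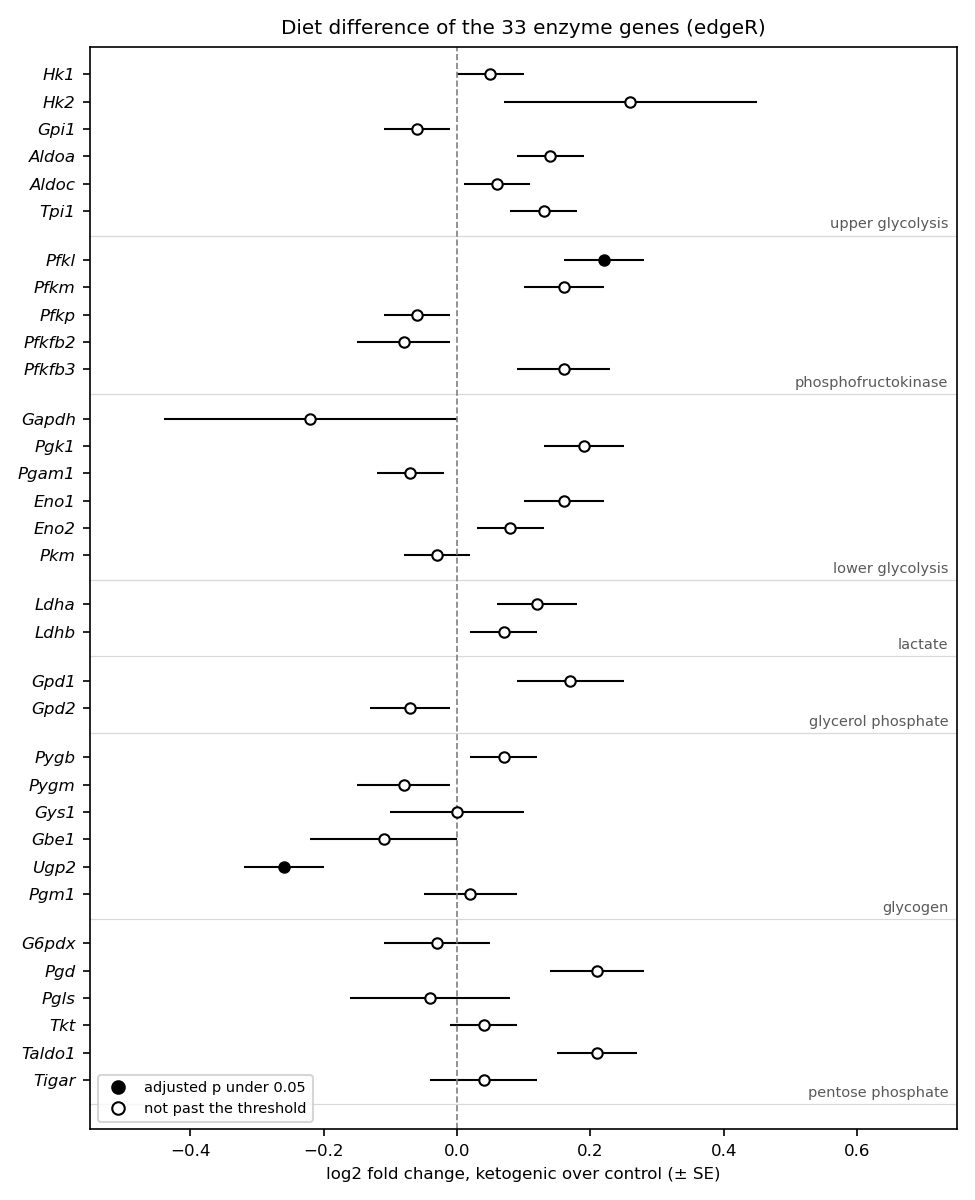
Log2 fold change of ketogenic over control for the 33 genes, with SE bars from edgeR, grouped by role. Filled points passed an adjusted p of 0.05: Pfkl at 0.22 and Ugp2 at -0.26; open points did not.

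Among the genes of upper glycolysis, none of 6 passed (2 had an unadjusted p under 0.05), and 5 of 6 log2 fold changes were above 0, with a median of 0.10. Hk1, the constitutive brain hexokinase that holds 99.4% of hexokinase FPKM in both diets, averaged 540 ± 29.1 CPM in ketogenic and 522 ± 8.98 CPM in control libraries (SD, n = 4 each; log2 fold change 0.05, adjusted p = 0.611). Hk2 had a log2 fold change of 0.26 ± 0.19 (SE, adjusted p = 0.437) at 3.89 CPM in ketogenic and 3.24 CPM in control libraries, and of 0.15 without control replicate 2. Gpi1, which isomerizes glucose-6-phosphate, had a log2 fold change of -0.06. Aldoa, which splits fructose bisphosphate, had 1681, 1680, 1793 and 1610 CPM in ketogenic libraries, against 1499, 1502, 1543 and 1609 CPM in control libraries. The diets did not overlap for Aldoa, but ketogenic replicate 4 and control replicate 4 were 1 CPM apart, and its log2 fold change of 0.14 ± 0.05 (SE) gave an adjusted p of 0.105. Tpi1, the triosephosphate isomerase, had 634, 641, 695 and 650 CPM in ketogenic libraries, against 595, 587, 604 and 600 CPM in control libraries. Its control values were tightly grouped and all below the ketogenic ones, and the adjusted p was 0.0992 for a log2 fold change of 0.13. Aldoc, the brain aldolase known as an astrocyte and Purkinje cell gene, had a log2 fold change of 0.06.

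Phosphofructokinase, which commits sugar to glycolysis, was the step with the gene that rose. Pfkl, the liver type (chr10:77986947-78010083, minus strand, GENCODE M21 on GRCm38), had 172, 163, 180 and 154 CPM in ketogenic libraries, against 134, 139, 142 and 158 CPM in control libraries. Of the 4 ketogenic libraries 3 lay above every control library, and replicate 4 lay below control replicate 4. Pfkl rose 1.17-fold, a log2 fold change of 0.22 ± 0.06 (SE, edgeR adjusted p = 0.0452). It no longer passed when any of ketogenic replicates 1 to 3 or control replicates 1 to 3 was left out, the largest adjusted p being 0.144. Nor did it pass after a smooth trend on GC content and length was taken out of each library (log2 fold change 0.18, adjusted p = 0.174). Limma on log2(FPKM + 1) gave an adjusted p of 0.0944.

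The other phosphofructokinase genes did not pass. Pfkm, the muscle type and the most abundant of the 3 in this tissue, had 402, 418, 430 and 426 CPM in ketogenic libraries, against 341, 368, 383 and 403 CPM in control libraries. Its ketogenic replicate 1 was just below control replicate 4, and the log2 fold change was 0.16 ± 0.06 (SE, edgeR adjusted p = 0.0847). Pfkp, the platelet type, had 325, 296, 329 and 293 CPM in ketogenic libraries, against 330, 311, 330 and 325 CPM in control libraries, with a log2 fold change of -0.06 ± 0.05 (adjusted p = 0.534). The enzymes that make and break fructose-2,6-bisphosphate, the allosteric activator of phosphofructokinase, had log2 fold changes of 0.16 (Pfkfb3, adjusted p = 0.158) and -0.08 (Pfkfb2, adjusted p = 0.524). For Pfkfb3, ketogenic libraries lay between 44.6 and 46.2 CPM and control libraries between 36.6 and 44.7 CPM.

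As shares of the FPKM of the step, Pfkl held 17.3 ± 0.747% in ketogenic and 15.9 ± 0.485% in control libraries, Pfkm 53.4 ± 1.86% in ketogenic and 51.2 ± 1.36% in control libraries, and Pfkp 29.3 ± 1.18% in ketogenic and 32.9 ± 1.67% in control libraries (SD, n = 4 each). The sum of the 3 was 237 ± 2.43 FPKM in ketogenic and 220 ± 12 FPKM in control libraries. The ratio of Pfkl to Pfkp was 0.581, 0.603, 0.601 and 0.577 in ketogenic libraries, against 0.445, 0.49, 0.472 and 0.533 in control libraries. Every ketogenic ratio was above every control ratio, and the log2 ratio was 0.29 higher in ketogenic libraries. Its exact two-sided permutation p was 0.0286, the smallest that 70 assignments of 4 against 4 can give, and 0.129 after Benjamini-Hochberg adjustment over the 9 isoform pairs compared, so it did not pass.

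None of the 9 isoform pairs passed. Pfkm over Pfkp (0.23), Pfkfb3 over Pfkfb2 (0.24) and Gpd1 over Gpd2 (0.23) had log2 ratios that were higher in ketogenic libraries with 1 value out of order, each at an exact permutation p of 0.0571 (adjusted p = 0.129). Pygm over Pygb, the muscle over the brain glycogen phosphorylase, had a log2 difference of -0.15 (exact permutation p = 0.0857, adjusted p = 0.154). The differences were 0.22 for Hk2 over Hk1 (0.09 without control replicate 2), -0.08 for both Aldoc over Aldoa and Eno2 over Eno1, and -0.05 for Ldhb over Ldha, with adjusted exact permutation p of 0.257 to 0.486. With 4 libraries a diet, only a complete separation of the groups reaches the smallest p, and the adjustment then needs several pairs to do so.

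**Figure D3:**
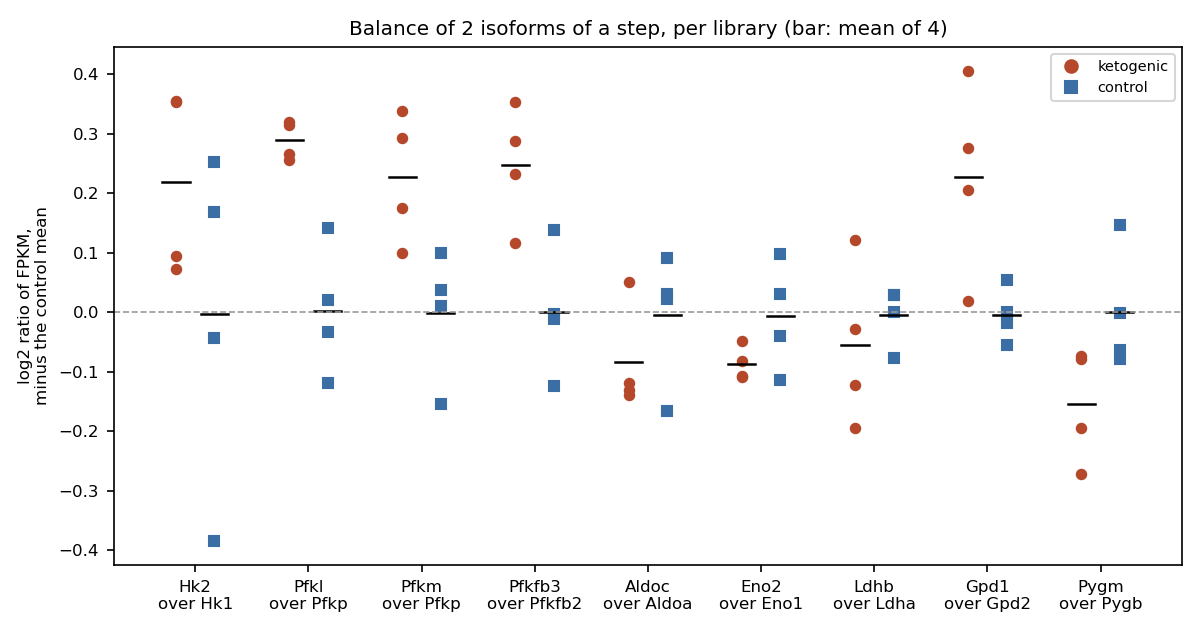
Log2 ratio of the FPKM of 2 isoforms of a step in each library, minus the control mean of that pair, with ketogenic circles left of control squares and bars at the mean of 4. Pfkl over Pfkp, 0.29 higher in ketogenic libraries, is the pair in which no ketogenic point reaches down to the control points.

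In lower glycolysis none of 6 genes passed and 2 had an unadjusted p under 0.05, with 3 log2 fold changes above 0 and 3 below. Pgk1, the phosphoglycerate kinase, had 371, 386, 421 and 382 CPM in ketogenic libraries, against 319, 333, 344 and 372 CPM in control libraries. The diets overlapped by a single pair of libraries, ketogenic replicate 1 and control replicate 4, and the log2 fold change was 0.19 ± 0.06 (SE, edgeR adjusted p = 0.0637). Eno1, the widely used enolase, averaged 665 ± 28.7 CPM in ketogenic and 595 ± 39.3 CPM in control libraries (SD, n = 4 each, adjusted p = 0.091). Eno2, the neuronal enolase, averaged 1051 ± 32.8 CPM in ketogenic and 993 ± 9.34 CPM in control libraries, without overlap (log2 fold change 0.08, adjusted p = 0.297). Per length the enolases were near parity, with Eno1 at 50.8 ± 0.479% of their summed FPKM in ketogenic and 49.4 ± 1.56% in control libraries. Pgam1 (phosphoglycerate mutase) and Pkm (pyruvate kinase, whose splice forms cannot be told apart in counts per gene) had log2 fold changes of -0.07 and -0.03.

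Gapdh, the dehydrogenase often used as a reference gene, depended on 1 library. It had 60.4, 64, 59.3 and 56.4 CPM in ketogenic libraries, against 52.9, 49, 52.7 and 125 CPM in control libraries. Control replicate 4 stood far above its group, and all ketogenic values lay between it and the other 3 control values. The log2 fold change was -0.22 ± 0.22 (SE, edgeR adjusted p = 0.583) with all libraries, and 0.22 without control replicate 4 (adjusted p = 0.0376), the opposite direction and past the threshold. The annotation holds 78 other genes, 75 of them pseudogenes, with at least 95% identity to a Gapdh transcript over at least 200 bases, so that Gapdh reads may have been shared out or dropped in counting and its level is uncertain. Leaving Gapdh out, the median log2 fold change of the other 32 was again 0.05. Pgk1 and Ldha have 4 such copies each, Eno1 3, and Gpi1, Tpi1, Pgam1, Pkm and Ldhb 1 each.

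Both lactate dehydrogenase genes had log2 fold changes above 0, and neither passed or had an unadjusted p under 0.05. Ldhb, whose subunit is known for favouring pyruvate formation, averaged 602 ± 15.5 CPM in ketogenic and 575 ± 13.8 CPM in control libraries (SD, n = 4 each; log2 fold change 0.07, adjusted p = 0.41). Ldha, whose subunit favours lactate formation, averaged 252 ± 22.3 CPM in ketogenic and 231 ± 8.35 CPM in control libraries (log2 fold change 0.12, adjusted p = 0.233, and 0.07 without ketogenic replicate 3). Ldhb made up 90.7 ± 0.785% of their summed FPKM in ketogenic and 91.1 ± 0.286% in control libraries. The glycerol phosphate shuttle carries reducing equivalents of glycolysis into mitochondria. Its cytosolic enzyme gene Gpd1 averaged 117 ± 17.4 CPM in ketogenic and 104 ± 6.14 CPM in control libraries, with ketogenic replicate 3 highest at 142 CPM. The Gpd1 log2 fold change was 0.17 (adjusted p = 0.227), and 0.06 without ketogenic replicate 3 (adjusted p = 0.589). The mitochondrial enzyme gene Gpd2 had a log2 fold change of -0.07.

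Among the 6 glycogen enzyme genes, Ugp2 fell and the other 5 did not pass. Ugp2 encodes UDP-glucose pyrophosphorylase, which makes the glucose donor of glycogen synthase (chr11:21321138-21371201, minus strand, GENCODE M21 on GRCm38). It had 74.2, 66.9, 70.5 and 74.9 CPM in ketogenic libraries, against 90.9, 84, 89.9 and 78.7 CPM in control libraries. All ketogenic libraries lay below all control libraries, and the level fell by 0.26 ± 0.06 on the log2 scale (SE, edgeR adjusted p = 0.0253), 1.2-fold lower. Ugp2 no longer passed when ketogenic replicate 2 (adjusted p = 0.0881) or control replicate 1, 2 or 3 (0.0612 to 0.0896) was left out, or when ketogenic replicates 3 and 4 were both left out (0.102). Limma on log2(FPKM + 1) gave 0.0697. With the GC and length trend removed its log2 fold change was -0.12 (adjusted p = 0.291). The GC content was 39.1% for Ugp2 and 57.1% for Pfkl. The Ugp2 locus overlaps 1 annotated gene on its own strand, which counting of either kind could mix with it if exons overlap. It also overlaps 1 gene on the other strand, which counting without strand could mix if exons overlap. The overlaps are of gene bounds, and overlap of exons was not checked.

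The remaining glycogen genes had log2 fold changes between -0.11 and 0.07. Pygb, the brain phosphorylase that releases glucose units, held 79.5 ± 1.08% of phosphorylase FPKM in ketogenic and 77.7 ± 1.26% in control libraries (SD, n = 4 each) and had a log2 fold change of 0.07. Pygm had -0.08, Gys1 0.00, the branching enzyme gene Gbe1 -0.11 (-0.21 to -0.05 with single libraries left out) and the phosphoglucomutase gene Pgm1 0.02, with adjusted p of 0.565 to 0.988 for these 4. The symbol Pgm1 has named genes on different mouse chromosomes, and the gene length behind the deposited FPKM, 2968 bases, was nearer to the 2921 exon bases of the chromosome 4 gene than to the 2590 of Pgm2.

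**Figure D4:**
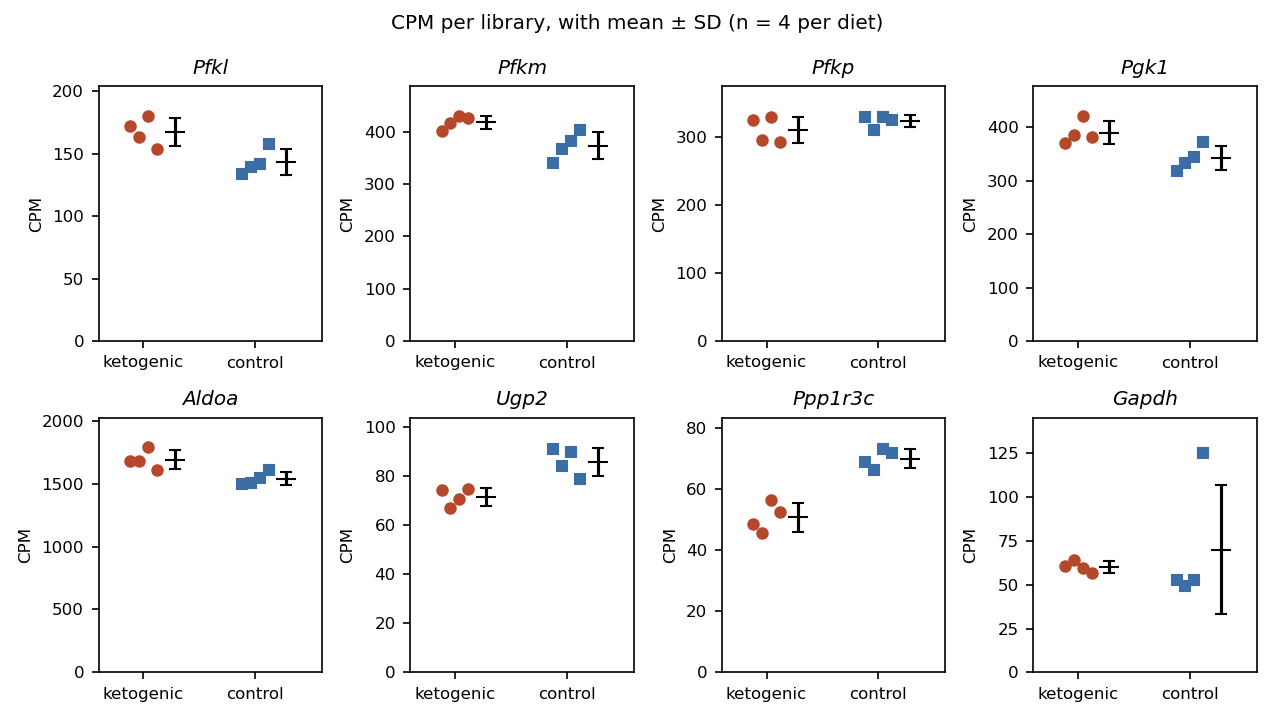
CPM per library of 8 genes, with ketogenic circles left of control squares and mean ± SD (n = 4 per diet) beside each group, on axes that start at 0. Ugp2 and Ppp1r3c are lower in every ketogenic library than in any control library. Pfkl is higher in the ketogenic mean, but its ketogenic replicate 4 (154 CPM) lies below control replicate 4 (158 CPM). Pfkp overlaps, with ketogenic replicates 2 and 4 (296 and 293 CPM) below all control libraries. In Gapdh control replicate 4, at 125 CPM, widens the control SD to 36.7.

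None of the 6 pentose phosphate genes passed, and 2, Pgd and Taldo1, had an unadjusted p under 0.05. Pgd, the second dehydrogenase and a source of NADPH, had 42.3, 44.6, 44.1 and 49.1 CPM in ketogenic libraries, against 39.5, 36.6, 39.2 and 40.5 CPM in control libraries. All ketogenic values were above all control values, and the log2 fold change was 0.21 ± 0.07 (SE, edgeR adjusted p = 0.0696). Taldo1, the transaldolase of the non-oxidative arm, averaged 65.7 ± 2.63 CPM in ketogenic and 56.9 ± 4.24 CPM in control libraries (SD, n = 4 each; log2 fold change 0.21, adjusted p = 0.0641), overlapping by the lowest ketogenic and the highest control library. G6pdx, the entry dehydrogenase, Pgls, the lactonase, Tkt, the transketolase, and Tigar had log2 fold changes of -0.03, -0.04, 0.04 and 0.04, with adjusted p of 0.721 to 0.874.

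Which of these genes passed varied with the test and with single libraries. The DESeq2 Wald test called 8 of the 33 higher (Aldoa, Eno1, Pfkl, Pfkm, Pgd, Pgk1, Taldo1 and Tpi1) and Ugp2 lower. By that test 6.05% of all genes were higher and 5.86% lower, 11.9% in all. Without control replicate 4, 9 of the 33 were higher by edgeR (the same without Tpi1, and with Gapdh and Pfkfb3) and Ugp2 lower. In that fit 6.25% of all genes were higher and 6.41% lower, 12.7% in all. In both settings the share of the 33 called higher was above that of all genes. With the GC and length trend removed, or without ketogenic replicates 3 and 4 together, 0 of the 33 passed in either direction by edgeR, where 2.11% and 0.592% of all genes passed. Limma on log2(FPKM + 1) also called 0 of the 33, and 0.356% of all 17983 genes.

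**Figure D5:**
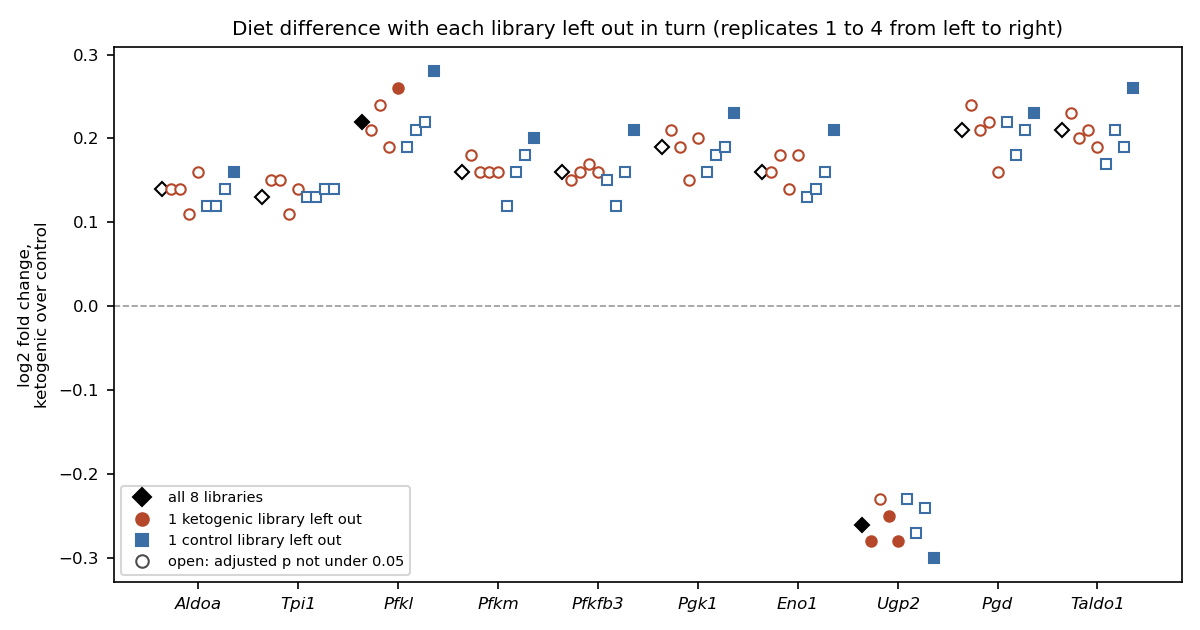
Log2 fold change of ketogenic over control for the 10 genes with an unadjusted p under 0.05, with all 8 libraries (diamond), with each ketogenic library left out (circles) and with each control library left out (squares), replicates 1 to 4 from left to right. Filled symbols passed an adjusted p of 0.05; without control replicate 4, 8 of the 9 genes above 0 passed, and Ugp2 stayed between -0.30 and -0.23.

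Among 76 other genes of these pathways and their regulators, 74 were in the table and 64 were tested. Of the 64, 0 rose and 2 fell (3.12%), against 3.3% higher and 3.22% lower over all tested genes. With edgeR 13 of the 64 (20.3%) had an unadjusted p under 0.05, against 24.6% of all tested genes. The DESeq2 Wald test called 3 of the 64 higher and 7 lower, where 6.05% of all genes were higher and 5.86% lower. Ppp1r3c, a regulatory subunit that brings protein phosphatase to glycogen and so promotes its synthesis, had 48.6, 45.4, 56.5 and 52.3 CPM in ketogenic libraries, against 68.6, 66.2, 73 and 71.8 CPM in control libraries. The diets were well separated, and the level fell by 0.46 ± 0.07 on the log2 scale (SE, edgeR adjusted p = 0.00374), 1.38-fold lower. It passed in all 8 fits that left out 1 library, with adjusted p no higher than 0.018, and after the GC and length trend was taken out (0.0128).

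Hif1a, the oxygen-sensitive transcription factor known to induce many glycolytic genes, was the other one. It had 105, 90.4, 94.7 and 94.3 CPM in ketogenic libraries, against 118, 116, 126 and 109 CPM in control libraries. All ketogenic libraries lay below all control libraries, and the level fell by 0.29 ± 0.06 on the log2 scale (SE, edgeR adjusted p = 0.0178). Hif1a no longer passed when ketogenic replicate 2 (adjusted p = 0.065), control replicate 1 (0.0612) or control replicate 2 (0.0518) was left out, or when ketogenic replicates 3 and 4 were both left out (0.118). Limma on log2(FPKM + 1) gave 0.063, and taking out the GC and length trend gave a log2 fold change of -0.17 (adjusted p = 0.146).

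By list, 0 of 18 other glycolysis and gluconeogenesis genes, 0 of 3 lactate and glycerol phosphate genes and 0 of 7 pentose phosphate genes passed, with 2, 0 and 2 of them at an unadjusted p under 0.05 in edgeR. In glycogen metabolism 1 of 22 fell, and among the regulators 1 of 14 fell. The largest differences in the lists without a call were 0.67 for the gluconeogenic Fbp1, at 0.468 CPM in ketogenic and 0.294 CPM in control libraries (adjusted p = 0.423), 0.04 for the glycerol kinase gene Gk, and -0.33 for Rpe of the pentose phosphate pathway (adjusted p = 0.0687).

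Some cell type markers passed the threshold. Over all tested genes 6.52% passed, and 24.6% had an unadjusted p under 0.05 in edgeR. Of 8 astrocyte markers 0 rose and 4 fell, Gfap, Aqp4, Gja1 and Aldh1l1, and their summed level was 3665 to 4228 CPM in ketogenic and 3873 to 4654 CPM in control libraries. Of 5 red blood cell markers 4 rose, with sums of 69.4 to 114 CPM in ketogenic and 15.3 to 52.4 CPM in control libraries. Of 10 neuron markers 0 passed in edgeR (2 at an unadjusted p under 0.05), with sums of 9208 to 10813 CPM in ketogenic and 9849 to 10826 CPM in control libraries, and no marker of any list was at 0 in all libraries. For choroid plexus and ependyma, 0 of 6 passed in edgeR (3 at an unadjusted p under 0.05), with sums of 1048 to 1348 CPM in ketogenic and 582 to 1120 CPM in control libraries. The lists for oligodendrocyte precursors (4 genes), endothelium (7), meninges (5) and skeletal muscle (3) also had 0 past the threshold, with 0, 1, 1 and 1 genes at an unadjusted p under 0.05. Tmem119 rose among 8 microglia markers (12.5%), Ermn fell among 8 oligodendrocyte markers (12.5%) and Rgs5 fell among 5 pericyte markers (20%). Each is a single gene, and the other markers of these lists did not pass. In whole tissue, fewer cells of a type and less RNA per cell cannot be told apart, and the part of these marker shifts in the changes of Pfkl, Ugp2, Ppp1r3c and Hif1a was not tested.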

How the data were processed

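Messenger RNA from db/db brain was sequenced in 4 ketogenic and 4 control libraries, each prepared from 1.3 ug of total RNA, per the labels. The authors deposited raw counts per gene symbol and FPKM values, which equal the counts scaled by the column total and 1 length per gene (largest relative spread 1.79e-07). The submitters' processing notes name builds GRCm38 and mm10; no aligner, counting program, strand setting or annotation is given in the sources used here. Counts were tested with edgeR 4.0.16 (R 4.3.3; TMM factors, filterByExpr, quasi-likelihood F test, diet as the term), which kept 14895 of 17983 symbols, with Benjamini-Hochberg adjustment over all of them and a threshold of 0.05. SE is the log2 fold change over the square root of F. CPM uses TMM library sizes. Isoform ratios of FPKM were compared by exact permutation of the 8 libraries. Alternatives were other scalings and filters, DESeq2 1.42.0, limma 3.58.1 on voom weights or log2(FPKM + 1) and log2(FPKM + 0.1), a replicate block, loess removal (span 0.3) of a GC and length trend (GC known for 98.1% of genes), and libraries left out. The members, lists, pairs and alternatives were chosen with earlier results of these data known. All 33 genes were to be named, with values per library for those past the threshold and for the isoform pair of smallest p, and in each other list the genes past the threshold and the one with the largest difference; values per library for other genes were added after they were seen.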

Additional observations from a re-analysis of the deposited data

Results flagged for a closer look

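Of 84 groups of 4 libraries (66 of single genes, 18 of isoform ratios), 5 held a library that Dixon's test set apart from the rest of its diet; chance marks about 1 in 20 groups. Gapdh was at 125 CPM in control replicate 4, against 49 to 52.9 CPM in the other control libraries. G6pdx was lowest in the same library, at 47.1 CPM against 53.6 to 54.7 CPM in the other control libraries. Gbe1 was highest in ketogenic replicate 1, at 21.1 CPM against 16.1 to 16.9 CPM in the other ketogenic libraries. Tkt was lowest in ketogenic replicate 3, at 161 CPM against 183 to 187 CPM in the other ketogenic libraries. The ratio of Aldoc to Aldoa was 0.567 in ketogenic replicate 4, against 0.497 to 0.504 in the other ketogenic libraries. The cause was not tested for any of these.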

How the results depend on the processing

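Over the 33 genes and all alternatives, with signs read to 2 decimals, 648 of 693 log2 fold changes did not reverse or change their side of the threshold, 20 lost the threshold, 17 gained it and 8, from 5 genes, reversed. The 648 include Gys1, which at 0.00 had no direction to 2 decimals and lay below 0 in 7 alternatives, with a range of -0.10 without ketogenic replicates 3 and 4 together to 0.07 without control replicate 1. With single libraries left out, Gapdh ran from -0.36 to 0.22 (reversed without control replicate 4), Pgm1 from -0.04 to 0.09 (ketogenic replicate 4, and -0.02 without control replicate 1), G6pdx from -0.08 to 0.04 (ketogenic replicate 3), Tigar from -0.01 to 0.09 (control replicate 2) and Pgls from -0.12 to 0.04 (control replicate 3, and 0.03 without ketogenic replicate 4). Pgls was also at 0.04 without ketogenic replicates 3 and 4 together. Of the 33, genes past the threshold, 1 higher and 1 lower, numbered 0 to 9 higher and 0 to 1 lower with single libraries left out, 8 higher with the DESeq2 Wald test, and 0 and 0 with limma on log2(FPKM + 1) or log2(FPKM + 0.1), the GC and length trend removed, or ketogenic replicates 3 and 4 left out. Other pathway genes, 0 higher and 2 lower, numbered 0 to 3 higher and 1 to 5 lower with single libraries left out, 3 and 7 with DESeq2, and 1 lower with either limma fit, the trend removed, or without ketogenic replicates 3 and 4. All genes, 491 higher and 480 lower, numbered 70 to 938 and 76 to 962 with single libraries left out, 901 and 873 with DESeq2, 35 and 29 or 51 and 37 with limma on log2(FPKM + 1) or log2(FPKM + 0.1), 160 and 155 with the trend removed, and 39 and 51 without ketogenic replicates 3 and 4. The cause of these shifts was not tested. Same-numbered libraries deviated together with correlations of 0.0218 to 0.0759, under 0.1, and only replicates 2 and 3 correlated best with their own number, so the numbers were not taken as pairs; with the replicate block 4 of the 33 were higher (Pfkl, Pfkm, Pgk1 and Taldo1) and 1 lower, 2 other pathway genes were higher and 3 lower, and 746 of all genes were higher and 782 lower. With the block and the trend removed together 0 of the 33 passed, 1 other pathway gene was higher and 2 lower, and 394 of all genes were higher and 410 lower (5.4% in all). The median log2 fold change of the 33 ran from 0.02 to 0.07 over all alternatives. With 4 libraries a diet, an exact permutation p cannot go below 0.0286 (0.0571 with 3 against 4, 0.133 with 2 against 4, and 0.125 for a sign-flip test of 4 pairs), so that isoform ratios without a library could not pass.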
